A study of Mus musculus with 13 samples.

Results

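The genes described here encode mitochondrial ribosomal proteins. Members were chosen by symbol, as the rows whose name starts with Mrpl or Mrps followed by a number, with pseudogene names containing -ps left out. This gave 78 of the 26264 genes in the tables, 51 of the large subunit, 26 of the small subunit and 1, Mrps36, that is no subunit of either. They were measured by RNA sequencing of right ventricles of Dsg2 F536C knock-in mice (7 libraries) and wild-type mice (6 libraries). The product of Dsg2, desmoglein 2, is an adhesion protein of cardiac desmosomes, and the knock-in serves as a model of arrhythmogenic right ventricular cardiomyopathy. Age, sex, strain background and zygosity are not given in the labels, which also do not say whether the libraries of a group came from separate animals, so the tests measure the spread between these libraries. All members passed the filter on low counts, and the lowest estimated read number of any member in any library was 265.

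Mitochondria carry their own ribosomes, which translate the few proteins that the mitochondrial genome encodes, all of them subunits of the respiratory chain and the ATP synthase. The ribosomal RNAs come from the mitochondrial genome, whereas every mitoribosomal protein is encoded in the nucleus, made in the cytosol and imported. Many of these proteins descend from bacterial ribosomal proteins, and others exist only in mitochondria. Heart muscle is rich in mitochondria, and mutations in several of these genes, among them MRPL3, MRPL44 and MRPS22, cause mitochondrial disease with cardiomyopathy in humans.

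Library totals ran from 14498336 to 29848597 estimated reads. The targeted gene Dsg2 had a log2 fold change of -1.08 (knock-in over wild type), and -0.97 without knock-in 4, 5 and 6; an RNA level does not test the amino acid change itself. Heart muscle markers were high in every library: 10 markers summed to 26480.5 to 53512 CPM in knock-in libraries (median 35524) and 64558 to 91920.1 CPM in wild-type libraries (median 78664), and 9 of the 10 were lower in the knock-in. Myom2 was not called lower in either set, and Actc1 (log2 fold change -0.22) was not called lower without knock-in 4, 5 and 6. Knock-in 4, 5 and 6 stood apart. Their 6 epithelial markers summed to 2364 to 3628 CPM, against 9.92 to 35.1 CPM in the other 10 libraries, and 10 of the 78 member values in each were not whole numbers, against 1 of 78 in each of the others. The counts and most values of named members are therefore also given without these 3 libraries. Fibroblast markers were higher for 2 of 6 genes (5 of 6 without those libraries) and macrophage markers for 3 of 6 (6 of 6 without them). The levels that follow are of RNA from whole ventricle, in which fewer heart muscle cells and less RNA per heart muscle cell cannot be told apart.

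The promoter stretches of 5 members and the stretch that joins a head-to-head pair are shown because most members moved together, with Mrpl42 as the most abundant member, 4 stretches as examples of a motif match and the joining stretch for a pair whose exons overlap. They come from RefSeq (GRCm38.p6) and run 5′ to 3′ on the strand of the gene, as the 130 bases before its start. Capitals mark only a match to the motif of the factor NRF1 (GCGCANGCG) in Mrps21, Mrpl45 and Mrpl44 and to the ETS family motif (CCGGAAGT) in Mrpl3. Mrpl42 had the highest level and the largest fall. Its printed 130 bases hold no match to any of the 5 motifs searched, but its longer promoter does, as given below.
Mrpl42, chr10:95501950-95502079, minus strand: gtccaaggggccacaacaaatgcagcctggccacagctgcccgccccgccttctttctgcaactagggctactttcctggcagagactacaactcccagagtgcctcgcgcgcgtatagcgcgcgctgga
Mrps21, chr3:95871515-95871644, minus strand: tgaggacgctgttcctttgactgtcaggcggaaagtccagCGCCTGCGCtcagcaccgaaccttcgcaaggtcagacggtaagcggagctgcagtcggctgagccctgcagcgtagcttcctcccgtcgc
Mrpl45, chr11:97315586-97315715, plus strand: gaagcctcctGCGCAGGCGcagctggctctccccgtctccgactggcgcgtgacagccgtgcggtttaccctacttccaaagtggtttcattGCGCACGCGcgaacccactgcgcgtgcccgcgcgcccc
Mrpl44, chr1:79775888-79776017, plus strand: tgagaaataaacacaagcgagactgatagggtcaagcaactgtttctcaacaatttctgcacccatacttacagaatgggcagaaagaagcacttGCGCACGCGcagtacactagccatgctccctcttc
Mrpl3, chr9:105053138-105053267, plus strand: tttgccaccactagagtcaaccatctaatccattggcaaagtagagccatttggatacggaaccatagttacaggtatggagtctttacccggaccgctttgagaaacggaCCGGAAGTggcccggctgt
Mrps11 and Mrpl46, the 41 bases between their starts, chr7:78783090-78783130, plus strand: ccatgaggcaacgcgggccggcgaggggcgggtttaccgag

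Of the 78 members, 69 matched the RefSeq table, with 75 promoters of 300 bases (250 before the start and 50 after it). On either strand, the NRF1 motif was found in 21.3% of these promoters, against 6.25% of all 32851 promoters of the table. The ETS motif was in 16%, against 3.89%, and the motif of the factor YY1 (AAGATGGC) was also in 16%, against 2.75%. The motif of the estrogen-related receptors (TCAAGGTCA) was in none of the 75 promoters and in 0.423% of all, and the CCAAT box (CCAAT) was in 40%, against 37.4% of all. No match overlapped a match to another motif. Of the 69 members, 37 had at least 1 match to NRF1, ETS or YY1. The median GC content was 58.7% in the members' promoters and 52.7% in all promoters, and its part in these shares was not tested. In Mrpl45 the 2 capitalised NRF1 matches lie in the stretch printed above, and a further match begins at base 17 after the gene's start. In Mrpl42 a YY1 match begins at base 28 after the start and a CCAAT box at base -218, both outside its printed stretch.

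Messenger RNA of the mitoribosomal proteins was lower in the knock-in across nearly the whole set. With all 13 libraries, 67 of the 78 members were lower in the knock-in and 0 were higher (edgeR quasi-likelihood test, Benjamini-Hochberg adjusted p under 0.05 over all tested genes). Among all 14588 tested genes, 21.0% were lower and 23.6% were higher. The members' median log2 fold change was -0.60, against 0.08 over all tested genes, and the values ran from -1.34 for Mrpl42 to 0.17 for Mrpl38. Without knock-in 4, 5 and 6, 70 members were lower and 0 were higher, where 21.3% of 14518 tested genes were lower and 22.3% were higher. The median was then -0.53, against 0.02 over all tested genes. Both fits use the same wild-type libraries. A total of 62 members were lower in both, and the share of all tested genes lower in both was not counted.

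The groups were fully separated for most members. In normalised read counts (CPM, scaled by the TMM method, which assumes that most genes do not change), every knock-in library was below every wild-type library for 42 members, against 10.5% of all tested genes. With the 10 other libraries this held for 52 members, against 15.1% of all tested genes. The reverse, every knock-in library above every wild-type library, held for 0 members in either set, against 8.60% of all tested genes with 13 libraries and 14.8% with 10. Relative to the wild-type means, the median member had a log2 ratio of -0.41 to -0.64 in knock-in 1, 2, 3 and 7 and of -0.67 to -0.89 in knock-in 4, 5 and 6. Knock-in 1, 3 and 7 had all 78 members below the wild-type mean, and knock-in 6 had 69. The wild-type libraries differed among themselves. Wild type 1, 2 and 4 had 62, 54 and 47 members below that mean, and wild type 3, 5 and 6 had 15, 23 and 12. The median member had -0.15 in wild type 1 and -0.19 in wild type 2. The share of all tested genes below the mean was not counted.

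**Figure D1:**
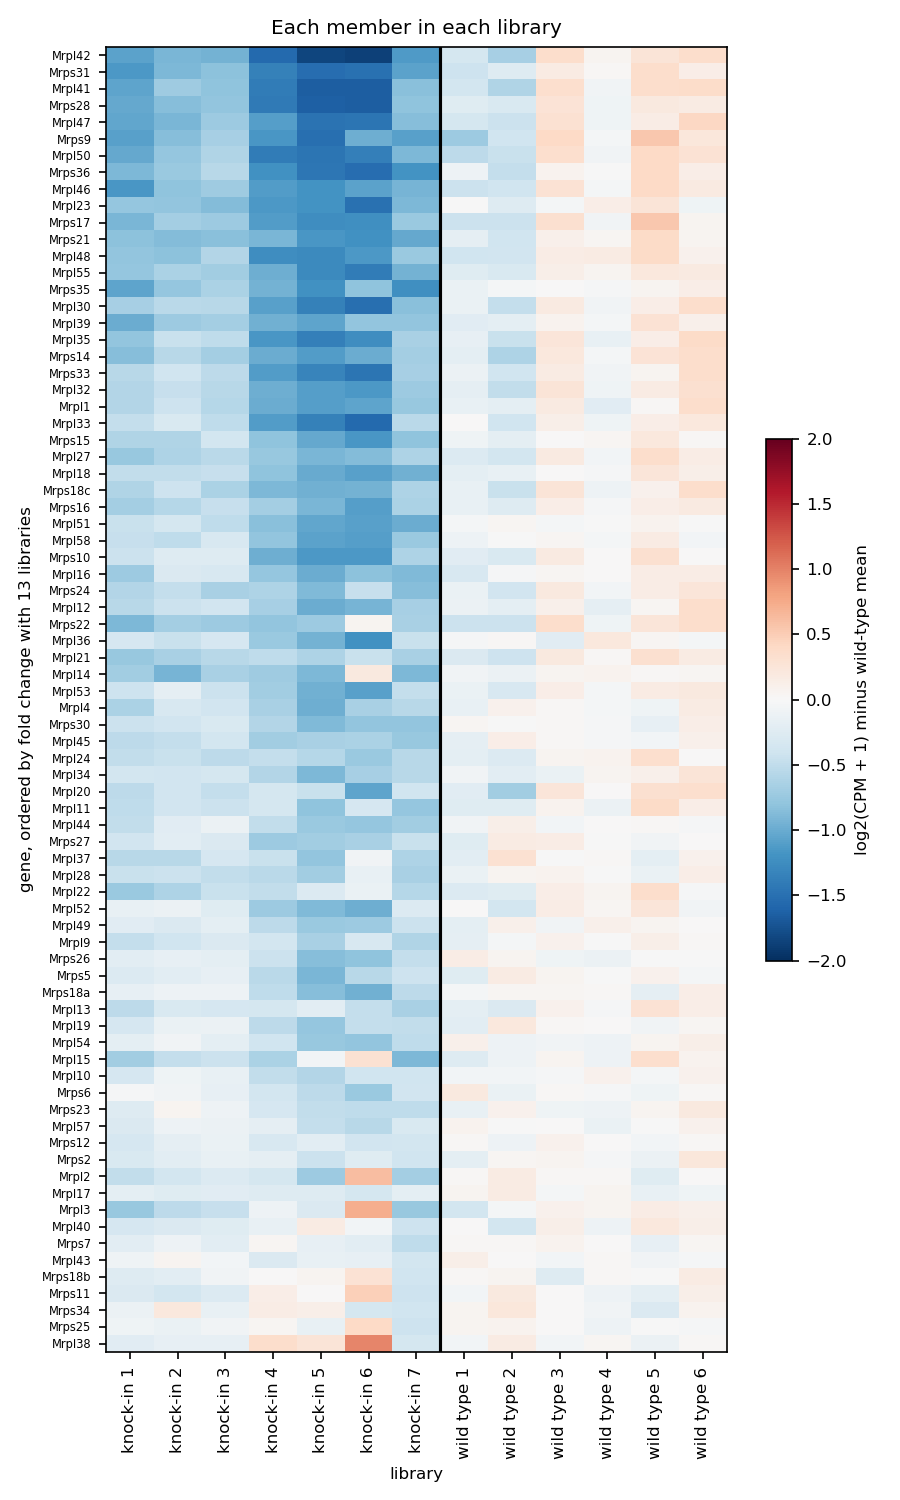
Level of each of the 78 members (rows, ordered by fold change) in each library (columns, knock-in 1 to 7 at the left and wild type 1 to 6 at the right), as log2(CPM + 1) minus the wild-type mean on the TMM scale. Blue cells, below the wild-type mean, fill most of the knock-in columns. Knock-in 6 has 69 of 78 members below it, with red cells for Mrpl38, Mrpl3 and Mrps11 among others. Wild type 1 and 2 also have 62 and 54 members below it.

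**Figure D2:**
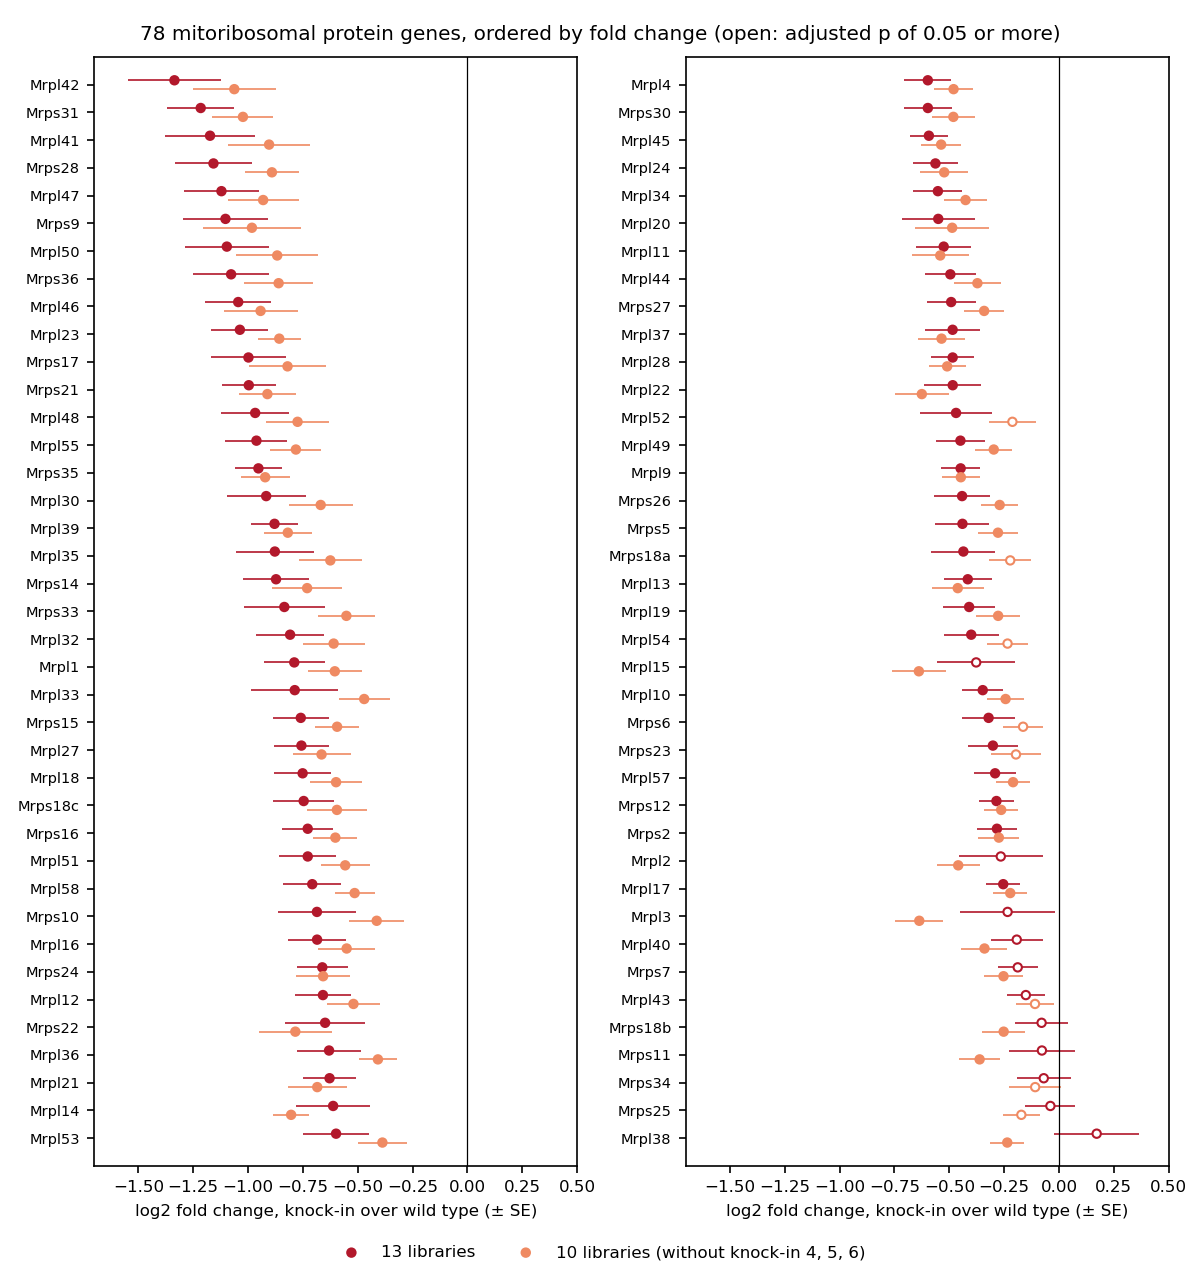
Log2 fold change (knock-in over wild type, ± SE) of each member on the TMM scale, with 13 libraries in dark red and without knock-in 4, 5 and 6 in light red. Open circles have an adjusted p of 0.05 or more. The values run from -1.34 for Mrpl42 to 0.17 for Mrpl38 with 13 libraries, and Mrpl38 is the one member with a positive value there.

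The size of this difference depended on the scale. TMM scaling left the median of all genes at 0.08, library totals moved it to 0.33, and length-scaled transcript shares (TPM, on log2(TPM + 1)) moved it to 0.38. With library totals 44 members were lower and 0 were higher, while 11.4% of all genes were lower and 41.9% were higher. On the TPM scale (limma) 30 members were lower and 4, Mrpl38, Mrpl43, Mrps25 and Mrps34, were higher, while 7.45% of all genes were lower and 52.5% were higher. With 10 libraries the counts were 45 lower and 0 higher with library totals (10.5% and 41.7% of all genes) and 24 lower and 1 higher (Mrpl43) on the TPM scale (6.36% and 53.3% of all genes). Measured against the median of all genes the members lay low on each scale. Their median minus that of all genes was -0.68 with TMM, -0.68 with library totals and -0.54 on the TPM scale, and 77 of 78 members were under it in each. The exception was Mrpl38.

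A total of 21 members were called lower under all 3 scalings, with and without knock-in 4, 5 and 6. How many of all tested genes meet this joint condition was not counted. It can be at most the 924 of 14518 that were lower on the TPM scale without those libraries. These were Mrpl23, Mrpl27, Mrpl30, Mrpl39, Mrpl41, Mrpl42, Mrpl46, Mrpl47, Mrpl48, Mrpl50, Mrpl55, Mrps9, Mrps14, Mrps16, Mrps17, Mrps21, Mrps24, Mrps28, Mrps31, Mrps35 and Mrps36. For 57 of the 78 members the fold change was negative on the TPM scale, against 69 with library totals and 77 with TMM. The 21 members with a positive value on the TPM scale with 13 libraries were Mrpl2, Mrpl3, Mrpl10, Mrpl13, Mrpl15, Mrpl17, Mrpl19, Mrpl38, Mrpl40, Mrpl43, Mrpl54, Mrpl57, Mrps2, Mrps6, Mrps7, Mrps11, Mrps12, Mrps18b, Mrps23, Mrps25 and Mrps34.

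Summed over all 78 members, the RNA came to 3917 to 5474 CPM in knock-in libraries (median 4594) and 6477 to 8925 CPM in wild-type libraries (median 8111). The means were 4730.1 ± 584 CPM in knock-in and 7868 ± 1049 CPM in wild-type libraries, a ratio of 0.601, or 0.650 without knock-in 4, 5 and 6. In TPM, a length-scaled share of each library, the sums were 9412 ± 945 TPM in knock-in and 11984 ± 609.9 TPM in wild-type libraries. That is a ratio of 0.785, or 0.846 without those 3 libraries. The highest knock-in library was below the lowest wild-type library on both scales. Both subunits took part. The large subunit without Mrpl42 (50 genes) summed to 2973 ± 329.8 CPM in knock-in and 4669 ± 518 CPM in wild-type libraries, and the small subunit (26 genes) to 1305 ± 143 CPM in knock-in and 2083 ± 258 CPM in wild-type libraries. The ratio of these sums was 2.23 to 2.33 in the knock-in libraries and 2.19 to 2.29 in the wild-type libraries. With Mrpl42 left out, the subunits thus kept nearly the same proportion. In CPM the knock-in over wild type ratio was 0.595 for the large subunit with Mrpl42. It was 0.637 without Mrpl42 and 0.626 for the small subunit.

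**Figure D3:**
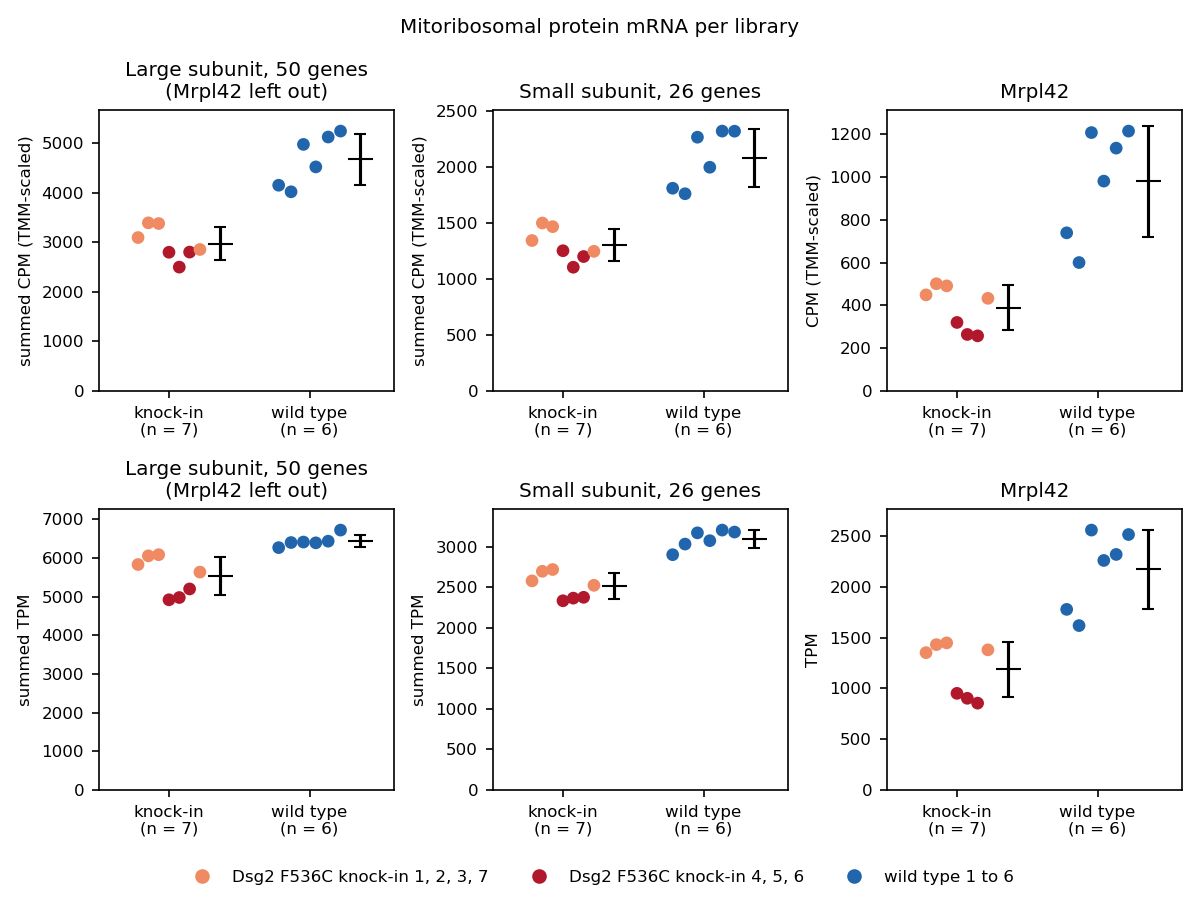
Summed level per library of the large subunit without Mrpl42 (50 genes), of the small subunit (26 genes) and of Mrpl42 alone, in TMM-scaled CPM (top) and TPM (bottom); each point is a library and the black marks are mean ± SD. All 7 knock-in points lie below all 6 wild-type points in each panel, and the gap is narrower in TPM than in CPM.

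By subunit and origin the counts were close to one another. Of the large subunit 45 of 51 members were lower (median log2 fold change -0.60) and of the small subunit 21 of 26 (median -0.65). They were 47 and 22 without knock-in 4, 5 and 6. Proteins with a bacterial homologue were lower for 41 of 47 members and proteins found only in mitochondria for 24 of 29 (45 and 23 without those libraries). The difference between these groups was not tested. The 39 members with the higher wild-type CPM had a median log2 fold change of -0.75 and the other 39 a median of -0.45 (-0.60 and -0.34 without those libraries). Across the 78 genes the fold change and the wild-type CPM had a Spearman rho of -0.58, and the fold change and the wild-type TPM of -0.49. These are descriptions over genes that share libraries, and abundance and transcript length moved together (rho of -0.77 between TPM and length).

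Levels of single members differed widely. In wild type their mean TPM had a median of 81.3, and in the knock-in the median was 69.7. Mrpl42, a large-subunit protein with no bacterial counterpart, was the most abundant member by far. It ranged from 855 to 1449 TPM in the knock-in libraries (median 1352) and from 1619 to 2559 TPM in the wild-type libraries (median 2289.5), and its wild-type mean was 2.45 times that of the next member. In CPM it ranged from 258 to 501 CPM in the knock-in libraries (median 433) and from 600.4 to 1215 CPM in the wild-type libraries (median 1058), so the groups did not overlap, and knock-in 4, 5 and 6 were the lowest 3 libraries. Its log2 fold change was -1.34 ± 0.21 (adjusted p = 0.00026), and -1.06 ± 0.19 (adjusted p = 0.000571) without them. Mrpl42 held 5.99% to 9.43% of all member CPM in knock-in libraries and 9.27% to 14.1% in wild-type libraries.

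The next 4 in abundance per length were Mrpl33, Mrpl30, Mrps21 and Mrpl12. Mrpl33, homologous to a small bacterial large-subunit protein, ranged from 441 to 911 TPM in the knock-in libraries (median 810.2) and from 803 to 948 TPM in the wild-type libraries (median 895), and the groups overlapped. Its log2 fold change on the TMM scale was -0.79 ± 0.20 (adjusted p = 0.00605) and -0.47 ± 0.12 (adjusted p = 0.00503) without knock-in 4, 5 and 6, which were its lowest libraries. Mrpl30, also of the large subunit, averaged 561 ± 120.0 TPM in knock-in and 779 ± 85.7 TPM in wild-type libraries (SD, n = 7 and 6) and had a log2 fold change of -0.92 ± 0.18 (adjusted p = 0.00126) with no overlap in CPM, and -0.67 ± 0.15 (adjusted p = 0.00228) without those 3 libraries. Mrps21, a small-subunit protein with the NRF1 match printed above, ranged from 79.7 to 104 CPM in the knock-in libraries (median 97.9) and from 139.8 to 242 CPM in the wild-type libraries (median 191). All 7 knock-in libraries were below all wild-type libraries, with a log2 fold change of -0.996 ± 0.12 (adjusted p = 4.87e-05). Its value was -0.91 ± 0.13 (adjusted p = 0.000127) without knock-in 4, 5 and 6.

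The 3 least abundant members per length were Mrpl17, Mrpl19 and Mrps25, all with a wild-type mean under 9 TPM. Mrpl17, a large-subunit protein near the exit of the peptide tunnel in bacteria, varied little, from 36.4 to 40.9 CPM in the knock-in libraries (median 39.4) and from 41.9 to 52.5 CPM in the wild-type libraries (median 47.0). The groups did not overlap, and its log2 fold change was -0.25 ± 0.08 (adjusted p = 0.0169), but it was 0.18 on the TPM scale and lost its call without wild type 2 (-0.19, adjusted p = 0.0519) or wild type 4 (-0.21, adjusted p = 0.0544). Mrpl19 had a log2 fold change of -0.41 ± 0.12 (adjusted p = 0.0121), -0.28 ± 0.10 (adjusted p = 0.0381) without knock-in 4, 5 and 6, and 0.02 on the TPM scale. The Mrpl19 call without those libraries was lost when knock-in 1 or 7 or wild type 2, 3, 4 or 6 was left out as well (adjusted p of 0.0575 to 0.120). Mrps25, of the small subunit, had -0.04 and was not called with TMM in either set, and it was called higher on the TPM scale (0.36) with 13 libraries.

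The largest falls after Mrpl42 were in Mrps31, Mrpl41, Mrps28, Mrpl47 and Mrps9, all of which were also lower on the TPM scale. Mrps31, a small-subunit protein with no bacterial counterpart, ranged from 23.2 to 38.3 CPM in the knock-in libraries (median 30.5) and from 51.2 to 87.6 CPM in the wild-type libraries (median 72.8). The groups were well apart, and the log2 fold change was -1.22 ± 0.15 (adjusted p = 5.54e-05), and -1.02 ± 0.14 (adjusted p = 9.01e-05) without knock-in 4, 5 and 6. Mrpl41, found only in mitochondria, averaged 58.3 ± 15.8 CPM in knock-in and 131 ± 35.7 CPM in wild-type libraries (SD, n = 7 and 6), with a log2 fold change of -1.17 ± 0.21 (adjusted p = 0.000588). Mrps28, of the small subunit, averaged 41.5 ± 10.8 CPM in knock-in and 92.5 ± 15.7 CPM in wild-type libraries, with -1.16 ± 0.17 (adjusted p = 0.000191). Mrpl47, whose bacterial homologue sits at the tunnel exit, averaged 25.3 ± 5.13 CPM in knock-in and 55.0 ± 13.3 CPM in wild-type libraries, with -1.12 ± 0.17 (adjusted p = 0.000209). In the 10 libraries left without knock-in 4, 5 and 6 the values were -0.90 ± 0.19 (adjusted p = 0.00182) for Mrpl41, -0.89 ± 0.12 (adjusted p = 9.67e-05) for Mrps28 and -0.93 ± 0.16 (adjusted p = 0.000548) for Mrpl47. For these 3 the knock-in libraries lay below all wild-type libraries.

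Mrps9, a small-subunit protein whose bacterial homologue lies in the head of the subunit, ranged from 52.2 to 94.7 CPM in the knock-in libraries (median 70.8) and from 91.0 to 220.2 CPM in the wild-type libraries (median 161). Knock-in 3 was above wild type 1, so the groups overlapped, and wild type 1 and 2 were the lowest of their group. The log2 fold change was -1.10 ± 0.19 (adjusted p = 0.000571), and -0.98 ± 0.22 (adjusted p = 0.00368) without knock-in 4, 5 and 6.

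Other members separated the groups with little spread. Mrps35, found only in mitochondria, ranged from 42.2 to 64.1 CPM in the knock-in libraries (median 51.3) and from 91.3 to 110.1 CPM in the wild-type libraries (median 99.2), and its lowest and highest knock-in values came from knock-in 7 and knock-in 3. The fold change was -0.95 ± 0.11 (adjusted p = 2.96e-05) on the log2 scale and -0.92 ± 0.11 (adjusted p = 3.8e-05) without knock-in 4, 5 and 6. Mrpl39 gave -0.88 ± 0.11 (adjusted p = 4.07e-05) and -0.82 ± 0.11 (adjusted p = 8.13e-05) in the same order, and Mrpl23, at the tunnel exit, -1.04 ± 0.13 (adjusted p = 5.43e-05) and -0.86 ± 0.10 (adjusted p = 2.36e-05). Each of these 3 had no overlap between the groups, which the rule that named them required with 13 libraries. The smaller set holds only libraries of the larger one, so the same followed there.

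**Figure D4:**
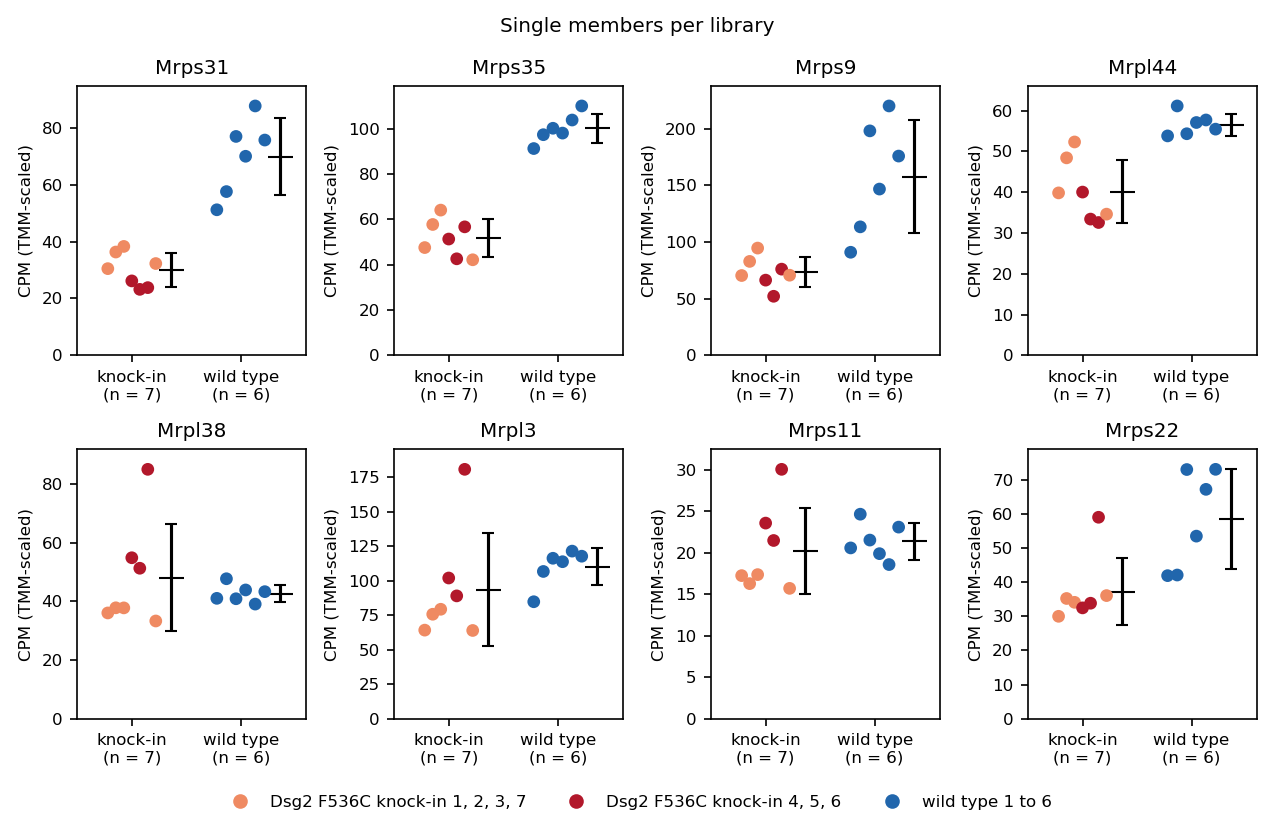
CPM (TMM-scaled) of 8 members in each library, knock-in at the left and wild type at the right of each panel, with mean ± SD in black. Mrps31, Mrps35 and Mrpl44 separate the groups and Mrps9 nearly does, while knock-in 6 is the highest library of all for Mrpl38, Mrpl3 and Mrps11 and the highest of the knock-in for Mrps22.

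The smallest called falls were in Mrpl17, Mrps2, Mrps12, Mrpl57, Mrps23 and Mrps6, with log2 fold changes of -0.25 to -0.32 with TMM, all of which turned positive on the TPM scale without a call. Mrps12, the protein of the decoding centre, had from 28.0 to 33.4 CPM in the knock-in libraries (median 29.2) and from 34.2 to 39.2 CPM in the wild-type libraries (median 37.3). The groups did not overlap, and the log2 fold change was -0.29 ± 0.08 (adjusted p = 0.0102), and -0.26 ± 0.08 (adjusted p = 0.0133) without knock-in 4, 5 and 6. Mrps23 (-0.30 ± 0.11 (adjusted p = 0.0427)) and Mrps6 (-0.32 ± 0.12 (adjusted p = 0.0439)) were not called without those 3. The calls of several rested on single libraries. That of Mrps23 held only without knock-in 2, knock-in 3 or wild type 1, and that of Mrps6 only without knock-in 1, 2 or 3 or wild type 2. Mrps2 lost its call without wild type 2, 3, 4 or 6 (adjusted p of 0.0552 to 0.0881), and Mrpl57 without wild type 6 (-0.24, adjusted p = 0.0542). Without knock-in 4, 5 and 6, Mrpl17 also lost its call when knock-in 1, 2 or 3 or wild type 1 or 4 was left out, Mrps2 when knock-in 1 or 7 or wild type 3 or 6 was, and Mrpl57 when knock-in 1 or 7 or wild type 1, 3, 5 or 6 was (adjusted p of 0.0507 to 0.123 over the 3 genes).

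A total of 11 members were not called with 13 libraries, and 8 of them were lower without knock-in 4, 5 and 6. These 8 were Mrpl2, Mrpl3, Mrpl15, Mrpl38, Mrpl40, Mrps7, Mrps11 and Mrps18b, and the 3 called in neither set were Mrpl43, Mrps25 and Mrps34. Conversely, Mrpl52, Mrpl54, Mrps6, Mrps18a and Mrps23 were called only with all 13. The difference between the sets was not tested.

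The members that moved most between the sets were Mrpl38, Mrpl3, Mrps11 and Mrpl33. Mrpl38, of the central protuberance that crowns the large subunit, had 33.4 to 37.8 CPM in knock-in 1, 2, 3 and 7, against 39.1 to 47.8 CPM in wild type. The same gene had 54.9, 51.3 and 85.1 CPM in knock-in 4, 5 and 6, respectively. Thus these 3 lay above every wild-type library while the other 4 lay below every one. Its log2 fold change was 0.17 ± 0.19 (adjusted p = 0.481) with 13 libraries and -0.24 ± 0.08 (adjusted p = 0.025) without those 3, and -0.025 (adjusted p = 0.886) when knock-in 6 alone was left out. The call without those 3 was lost when knock-in 1 (adjusted p = 0.057), knock-in 7 (0.0725) or wild type 4 (0.0505) was left out as well. On the TPM scale it was 0.53 and called higher with 13 libraries.

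Mrpl3, a core large-subunit protein mutated in human mitochondrial cardiomyopathy, had 63.9 to 79.2 CPM in knock-in 1, 2, 3 and 7, against 84.7 to 121 CPM in wild type. Its values were 102, 88.9 and 181 CPM in knock-in 4, 5 and 6, respectively, and knock-in 6 was above all other libraries. The log2 fold change was -0.23 ± 0.22 (adjusted p = 0.386) with 13 libraries and -0.64 ± 0.11 (adjusted p = 0.000458) without knock-in 4, 5 and 6. Without knock-in 6 alone it was -0.48 (adjusted p = 0.0105), a fall, while on the TPM scale it was 0.13. Mrps22, a small-subunit protein found only in mitochondria and also mutated in human disease, ranged from 30.0 to 59.0 CPM in the knock-in libraries (median 34.1) and from 41.9 to 73.0 CPM in the wild-type libraries (median 60.3). For Mrps22 knock-in 6 was the only knock-in library that overlapped wild type. The log2 fold change was -0.65 ± 0.18 (adjusted p = 0.0112), and -0.78 ± 0.17 (adjusted p = 0.00209) without knock-in 4, 5 and 6. Mrpl44, a large-subunit protein with a fold like that of RNase III and the other cardiomyopathy gene, ranged from 32.6 to 52.3 CPM in the knock-in libraries (median 39.8) and from 53.8 to 61.1 CPM in the wild-type libraries (median 56.3) with no overlap. It gave -0.50 ± 0.12 (adjusted p = 0.00426) and, without those libraries, -0.37 ± 0.11 (adjusted p = 0.0113), and on the TPM scale -0.08 with 13 libraries and 0.0047 without them, neither of them called.

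Mrps11 and Mrpl46 start head to head, 41 bases apart in the RefSeq table, and exons of the 2 genes overlap on opposite strands by 173 bases in a GENCODE annotation. Mrpl46, of the central protuberance, ranged from 28.2 to 40.2 CPM in the knock-in libraries (median 31.0) and from 49.0 to 87.2 CPM in the wild-type libraries (median 69.8), and its log2 fold change was -1.04 ± 0.15 (adjusted p = 0.000139), and -0.94 ± 0.17 (adjusted p = 0.000675) without knock-in 4, 5 and 6. The groups did not overlap, which the rule that named Mrpl46 required. Mrps11, whose bacterial homologue lies on the platform of the small subunit, had 15.7 to 17.4 CPM in knock-in 1, 2, 3 and 7, against 18.6 to 24.6 CPM in wild type. In contrast it had 23.6, 21.5 and 30.1 CPM in knock-in 4, 5 and 6, respectively. Its log2 fold change was -0.08 ± 0.15 (adjusted p = 0.693) with 13 libraries and -0.36 ± 0.09 (adjusted p = 0.00684) without those 3, and 0.33 on the TPM scale. The ratio of Mrps11 to Mrpl46 in CPM was 0.762 to 0.970 in knock-in 4, 5 and 6, 0.432 to 0.594 in the other 4 knock-in libraries and 0.213 to 0.495 in wild type. Whether reads of the pair were divided by strand is not given in the sources used here.

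Exons of 23 members overlap exons of a gene on the opposite strand, and 8 of these members had values that were not whole in each of knock-in 4, 5 and 6 and whole in the other 10 libraries. Of the members with an overlap 17 of 23 were lower, and 20 of 23 without knock-in 4, 5 and 6. Of the 55 members with none 50 were lower with 13 libraries and 50, not all of them the same members, without those 3. Mrps18b, one of 3 relatives of a single bacterial protein, was among the members that were not whole in those libraries and overlaps a gene on the opposite strand. Its log2 fold change was -0.08 ± 0.12 (adjusted p = 0.604) with 13 libraries and -0.25 ± 0.10 (adjusted p = 0.0492) without them, and 0.32 on the TPM scale. The call without them held only when knock-in 3 or wild type 3 was the further library left out. Mrps18c, the relative that keeps the bacterial place in the small subunit, averaged 49.8 ± 7.45 CPM in knock-in and 83.5 ± 16.6 CPM in wild-type libraries, with -0.75 ± 0.14 (adjusted p = 0.000816), and -0.59 ± 0.14 (adjusted p = 0.00316) without them.

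By place in the large subunit the counts were as follows. The stalk that recruits translation factors is built by Mrpl10, Mrpl11 and Mrpl12, all 3 of which were lower with TMM in both sets and none of which was called on the TPM scale. Mrpl12, which also occurs free of the ribosome and has been reported to bind the mitochondrial RNA polymerase, ranged from 157 to 240.4 CPM in the knock-in libraries (median 199) and from 274 to 399 CPM in the wild-type libraries (median 306), with a log2 fold change of -0.66 ± 0.13 (adjusted p = 0.00113), and -0.52 ± 0.12 (adjusted p = 0.00316) without knock-in 4, 5 and 6. Mrpl11 had -0.53 ± 0.13 (adjusted p = 0.00449) and -0.54 ± 0.13 (adjusted p = 0.00402) without them. Mrpl10 had -0.35 ± 0.09 (adjusted p = 0.00943) and -0.24 ± 0.08 (adjusted p = 0.0278) without them, and 0.07 on the TPM scale. Its call without them was lost when knock-in 1 or 7 or wild type 4 or 6 was left out as well (adjusted p of 0.0566 to 0.0889). At the tunnel exit all 5 members (Mrpl22, Mrpl23, Mrpl24, Mrpl45 and Mrpl47) were lower in both sets. Mrpl45, thought to hold the ribosome at the inner membrane, ranged from 48.3 to 63.2 CPM in the knock-in libraries (median 52.5) and from 72.6 to 89.6 CPM in the wild-type libraries (median 82.1) with no overlap and a log2 fold change of -0.59 ± 0.09 (adjusted p = 0.000181), and -0.54 ± 0.09 (adjusted p = 0.000435) in the smaller set. In the central protuberance 4 of 6 members were lower with 13 libraries (not Mrpl38 and Mrpl40) and 6 of 6 without knock-in 4, 5 and 6.

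Some symbols hide the place of the protein. Mrps30 and Mrps18a carry small-subunit names but belong to the large subunit. Mrps30 averaged 37.4 ± 6.02 CPM in knock-in and 56.6 ± 3.78 CPM in wild-type libraries (SD, n = 7 and 6), with a log2 fold change of -0.60 ± 0.11 (adjusted p = 0.00078), and -0.48 ± 0.10 (adjusted p = 0.0014) without knock-in 4, 5 and 6. Mrps18a was lower with 13 libraries at -0.44 ± 0.15 (adjusted p = 0.0263) but not called without knock-in 4, 5 and 6, at -0.22 ± 0.10 (adjusted p = 0.0743), nor when wild type 6 was left out (-0.38, adjusted p = 0.0539). Mrpl58, a release-factor relative that frees peptides from stalled mitoribosomes, averaged 31.9 ± 6.77 CPM in knock-in and 52.0 ± 3.42 CPM in wild-type libraries, with -0.71 ± 0.13 (adjusted p = 0.000862), and -0.51 ± 0.09 (adjusted p = 0.000536) without those 3. Mrps36, a component of the 2-oxoglutarate dehydrogenase complex, ranged from 46.4 to 91.6 CPM in the knock-in libraries (median 58.2) and from 96.2 to 177 CPM in the wild-type libraries (median 137). It separated the groups fully, with -1.08 ± 0.17 (adjusted p = 0.000305) and -0.86 ± 0.16 (adjusted p = 0.000714) without knock-in 4, 5 and 6.

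The members can also be grouped by their promoter motifs. The median log2 fold change was -0.54 for the 16 members with an NRF1 match and -0.65 for the 53 without. It was -0.69 for the 12 with an ETS match and -0.61 for the 57 without, and -0.49 for the 12 with a YY1 match and -0.65 for the 57 without. For the CCAAT box it was -0.69 for the 27 with a match and -0.60 for the 42 without. Without knock-in 4, 5 and 6 the medians with and without a match were -0.53 and -0.54 for NRF1, -0.58 and -0.54 for ETS, -0.38 and -0.55 for YY1 and -0.54 and -0.53 for the CCAAT box, so the gap at NRF1 was nearly gone. These medians are descriptions, and the differences were not tested.

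Many other genes of mitochondrial translation were lower with TMM, on which 21.0% of all tested genes were lower. Of 5 mitoribosomal proteins with other symbols 5 were lower in both sets, among them Dap3, a GTP-binding small-subunit protein (-0.60 ± 0.12 (adjusted p = 0.00117)), Ptcd3 (-1.15 ± 0.18 (adjusted p = 0.000258)) and Aurkaip1 (-0.75 ± 0.13 (adjusted p = 0.000496)), values being log2 fold changes with 13 libraries. Of 14 translation factors 9 were lower and 0 higher (13 lower without knock-in 4, 5 and 6), with Mrrf, which recycles the ribosome, at -0.89 ± 0.14 (adjusted p = 0.000247), Mtrf1, of the release-factor family, at -1.05 ± 0.16 (adjusted p = 0.000216) and the elongation factor relative Guf1 at -0.84 ± 0.12 (adjusted p = 0.000161). Of 20 aminoacyl-tRNA synthetases and related enzymes 10 were lower (18 without those libraries), with Fars2, which charges the phenylalanine tRNA, at -0.81 ± 0.09 (adjusted p = 3.14e-05). Of 28 assembly and rRNA modification factors 16 were lower and 0 higher (21 and 0), among them Malsu1 (-0.57 ± 0.09 (adjusted p = 0.000307)) and Mtg1 (-0.89 ± 0.14 (adjusted p = 0.000284)). On the TPM scale with 13 libraries these 4 lists had 2, 3, 2 and 7 members lower and 0, 0, 1 and 2 higher, in the order above, where 7.45% of all tested genes were lower and 52.5% higher. The median of the synthetases was 0.02 on that scale and -0.39 with TMM, so its sign turned.

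Genes upstream of the mitoribosome were called in both directions. Of 18 genes of mitochondrial DNA maintenance, transcription and mRNA stability 11 were lower and 0 higher (12 and 0 without knock-in 4, 5 and 6). Lrpprc, which stabilises mitochondrial mRNA, averaged 103 ± 12 CPM in knock-in and 226 ± 48.5 CPM in wild-type libraries, with a log2 fold change of -1.13 ± 0.14 (adjusted p = 5.79e-05). Tfam, which packages mitochondrial DNA and starts its transcription, had -0.73 ± 0.14 (adjusted p = 0.00107), and the elongation factor Tefm -0.999 ± 0.18 (adjusted p = 0.000761). On the TPM scale 4 of the 18 were lower and 3 higher, against 7.45% and 52.5% of all genes. Of 12 regulators of mitochondrial biogenesis 6 were lower and 4 higher (5 and 2), against 21.0% and 23.6% of all tested genes. In TPM 1 was lower and 5 were higher, shares near or under those of all genes. The receptor Esrrg was lower at -1.09 ± 0.14 (adjusted p = 6.87e-05) and its relative Esrra at -0.58 ± 0.11 (adjusted p = 0.000845). Nrf1 (0.30, adjusted p = 0.0451) and Gabpb1 (0.37, adjusted p = 0.0288) were higher. Gabpa was lower (-0.34, adjusted p = 0.00794) and Yy1 was not called (0.35, adjusted p = 0.0788). Of these last genes only Gabpa was called without knock-in 4, 5 and 6 (-0.30, adjusted p = 0.0212). Myc, a growth factor-induced transcription factor, was higher, and averaged 32.8 ± 49.1 CPM in knock-in and 3.00 ± 0.631 CPM in wild-type libraries; its log2 fold change was 3.45 ± 0.81 (adjusted p = 0.00468), and 1.36 ± 0.19 (adjusted p = 0.000108) without knock-in 4, 5 and 6.

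The 39 nuclear subunits of the respiratory chain and the ATP synthase fell further than the mitoribosomal proteins did in the median. All 39 were lower in both sets, with a median log2 fold change of -1.12 (-0.95 without knock-in 4, 5 and 6), and 37 of 39 were lower on the TPM scale. Cox7a1, the heart and muscle form of a cytochrome c oxidase subunit, averaged 602 ± 119.9 CPM in knock-in and 1663 ± 202 CPM in wild-type libraries, with -1.47 ± 0.14 (adjusted p = 1.02e-05), and Ndufs1, of complex I, 482 ± 92.7 CPM in knock-in and 1146 ± 195 CPM in wild-type libraries, with -1.25 ± 0.15 (adjusted p = 3.72e-05). Of 83 cytosolic ribosomal proteins 14 were lower (16.9%, against 21.0% of all tested genes) and 3 higher (3.61%, against 23.6%), with a median of -0.19. Without those libraries 8 of 82 were lower and 2 higher, with a median of -0.14. In TPM 1 of the 83 was lower and 39 were higher, where 7.45% of all genes were lower and 52.5% higher. The list's median minus that of all genes was -0.27 with TMM, -0.26 with library totals and -0.14 on the TPM scale, so the sign of its median turned with the scale while its place under the median of all genes did not. Their fold changes and the members' come from the same fit, and the difference between lists was not tested. The sum of the heart muscle markers given above was also lower in the knock-in, and the part of these markers in the result was not tested.

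**Figure D5:**
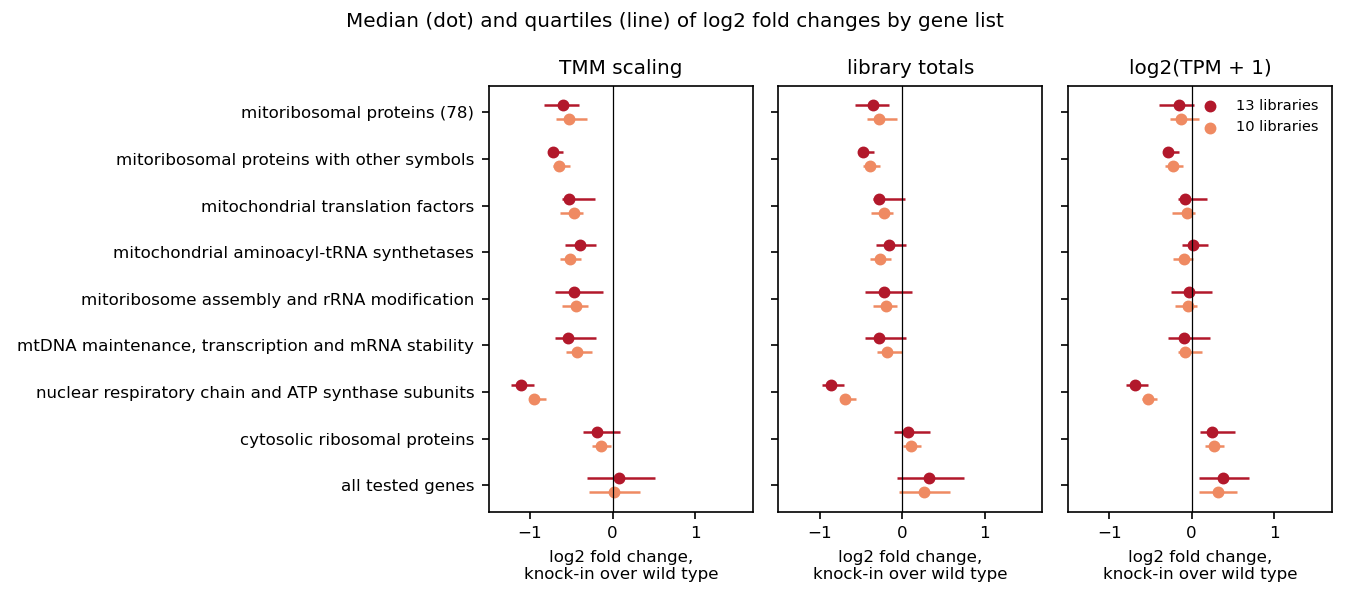
Median (dot) and quartiles (line) of the log2 fold changes (knock-in over wild type) of each gene list under TMM, library totals and log2(TPM + 1), with 13 libraries in dark red and 10 in light red. The mitoribosomal proteins (median -0.60 with TMM and 13 libraries) lie left of all tested genes under each scaling, the respiratory chain subunits (median -1.12) lie further left, and the cytosolic ribosomal proteins turn positive with library totals and TPM.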

How the data were processed

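Poly(A) RNA of right ventricles was sequenced from stranded Illumina libraries, per the labels' protocols. DRAGEN and the mouse build GRCm39 (mm39) appear in the submitters' processing notes. Neither annotation nor strand setting is given in the sources used here. The authors deposited, per the file headers, estimated counts (which need not be whole) and TPM per gene and library. Mitochondrially encoded genes were not analysed here.

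Counts were rounded to whole numbers, filtered with filterByExpr, scaled by TMM and tested with edgeR 4.0.16 (R 4.3.3, quasi-likelihood F test, robust, no covariate, Benjamini-Hochberg adjustment over the whole tested table, threshold 0.05). SE values were derived from the log2 fold change and F. Alternatives used DESeq2 1.42.0 and limma 3.58.1. Values were called whole within a tolerance of 1e-09. The pipeline was tested on simulated counts with the same spread for every gene. With 13 libraries it recovered 9% of 1.5-fold and 56% of 2-fold changes, and 7.14% of the calls were false. With 10 libraries it recovered 51% and 92%, and 6.54% of the calls were false. No replicate pair agreed within sampling noise. Antisense overlaps of at least 50 bases came from a GENCODE annotation of the older build GRCm38, for the relation of neighbours only, and such values are uncertain. Promoter sequences are RefSeq's on GRCm38.

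Members, lists and motif letters were chosen with earlier results of these data known, and the NRF1 motif was shortened by 1 letter after a first search. Of the members, 36 were named by rule: the 5 highest and 3 lowest in wild-type TPM, the 6 largest and 6 smallest called falls, up to 6 with the smallest p and no overlap, the 4 that moved most between the sets, and 14 fixed by role. Members outside that rule are named where counts of 5 or fewer, or lists by place, scaling or neighbour, hold them, and these were chosen after their values were seen. Other lists: at most 3 per list by smallest p. Of the genes that this picked, Cars2, Gatb, Trmt2b and Ndufs7, all lower, are not described above. Nrf1, Gabpa, Gabpb1 and Yy1 were named outside that rule, after their values were seen.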

Additional observations from a re-analysis of the deposited data

Results flagged for a closer look

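Each of the 36 members named by the fixed rule was searched in each group for a library far from the rest, by the gap to its neighbour over the whole range (Dixon's criterion at the 95% level), which made 72 groups of values. Chance flags about 1 in 20 such groups. The search picked out 3, and the library was knock-in 6, the highest of its group, each time. Mrpl38 had 85.1 CPM there, and the rest of the knock-in had 33.4 to 54.9 CPM. Mrpl3 had 181 CPM, and the rest had 63.9 to 102 CPM. Mrps22 had 59.0 CPM, and the rest had 30.0 to 36.1 CPM. Knock-in 6 belongs to the 3 libraries with epithelial marker RNA and with member values that are not whole. None of these 3 genes was among the members with values that are not whole. The part of either in these values was not tested.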

How the results depend on the processing

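The count of members lower in the knock-in was 67 with 13 libraries and 70 without knock-in 4, 5 and 6. It stayed within 1.5 times of these with DESeq2 size factors, the DESeq2 Wald test, limma-voom with quality weights, both other filters on low counts, effective length offsets, an adjusted p under 0.01, without members that overlap the opposite strand and without members whose values are not whole. No member was called higher in any of these. Library totals gave 44 and 45 members lower. With log2(TPM + 1) and log2(TPM + 0.1) alike 30 and 24 members were lower and 4 and 1 were higher. The summed level in the knock-in over wild type was 0.601 with TMM, 0.715 with library totals and 0.785 in TPM. An adjusted p under 0.01 left 3682 genes called across the transcriptome with 13 libraries, against 6502 at 0.05.

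Leaving out 1 library at a time gave 61 to 68 members lower with 13 libraries and 58 to 71 without knock-in 4, 5 and 6, with 0 to 0 higher in both, and 5490 to 6830 and 5178 to 6739 genes called across the transcriptome. The summed ratio was then 0.581 to 0.618.

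The labels do not say whether equal numbers in the titles pair the libraries. Same-numbered libraries had correlations of their deviations from -0.10 to 0.09, and such values cannot settle whether the libraries were paired. A fit with the replicate number as a block kept only libraries whose number occurs in both groups. Knock-in 7 was thus left out of both sets, and wild type 4, 5 and 6 out of the smaller set. Of the larger set's remaining libraries, 58 members were lower, and 37 members and 2776 genes were called in what remained without knock-in 4, 5 and 6. The effect of the block cannot be told apart from that of the libraries left out.

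Several named members changed sign. On the TPM scale with 13 libraries (pseudocount of 1, then of 0.1 where it differs) the values were 0.18 and 0.20 for Mrpl17, 0.018 and 0.021 for Mrpl19, 0.36 and 0.39 for Mrps25, 0.15 and 0.16 for Mrps2, 0.16 and 0.17 for Mrps12, 0.16 and 0.17 for Mrpl57, 0.12 for Mrps23, 0.10 for Mrps6, 0.13 for Mrpl3, 0.33 and 0.34 for Mrps11, 0.066 and 0.067 for Mrpl10 and 0.32 and 0.33 for Mrps18b. Without knock-in 4, 5 and 6 they were 0.16 and 0.18 for Mrpl17, 0.10 and 0.11 for Mrpl19, 0.20 and 0.22 for Mrps25, 0.12 and 0.13 for Mrps2, 0.14 for Mrps12, 0.19 and 0.20 for Mrpl57, 0.19 for Mrps23, 0.23 for Mrps6, 0.16 for Mrpl38, 0.047 and 0.049 for Mrps11, 0.0047 for Mrpl44, 0.14 for Mrpl10, 0.15 for Mrps18a and 0.12 and 0.13 for Mrps18b.

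Library totals with 13 libraries gave 0.20 for Mrps25, 0.016 for Mrpl3, 0.16 for Mrps11 and 0.16 for Mrps18b. Without knock-in 4, 5 and 6 they gave 0.021 for Mrpl17, 0.071 for Mrps25, 0.035 for Mrpl57, 0.047 for Mrps23, 0.079 for Mrps6, 0.0069 for Mrpl38, 0.00028 for Mrpl10 and 0.020 for Mrps18a. With the replicate block Mrps25 had a log2 fold change of 0.00493. Leaving out 1 of the 13 libraries gave -0.13 to 0.018 for Mrps25, -0.20 to 0.0094 for Mrps11 and -0.025 to 0.25 for Mrpl38. Mrpl38 was -0.17 with limma-voom and -0.24 when a term marked knock-in 4, 5 and 6. The other causes were not tested. The length per gene and the library total enter TPM, so its values move with the rest of the library.

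Each member had at least 265 reads in every library.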
